A study of Mus musculus with 6 samples.

Results

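The collagen genes were taken as every entry of an RNA-seq table whose symbol is Col, a type number, the letter a and a chain number, which gave 44 of 20950 entries. Of these, 17 had a mean of 1 FPKM or more over the 6 libraries, where FPKM is the number of sequenced fragments scaled to transcript length and library depth, and 27 lay below that mean. The libraries were made from C2C12 cells, a line of mouse muscle precursors that form multinucleate fibres in low serum, with no genetic change named for any group. One library each came from growing cells in DMEM with 10% FBS (fetal bovine serum), from cells differentiating in 2% HS (horse serum), from 2% HS + exosome, and from 0.2% FBS, and 2 came from 0.2% FBS + exosome. The exosomes, small membrane vesicles, were precipitated from FBS and added in the amount present in 10% FBS. All groups are a single cell line, and nothing in the sources used here says that the 2 exosome libraries of 0.2% FBS came from separate cultures, so their spread may be technical. The titles carry the number 1 in 2% HS with and without exosomes, 2 in 0.2% FBS and its exosome replicate 1, and 3 in exosome replicate 2, without saying what the number stands for, so that medium and number cannot be told apart.

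Collagens are secreted proteins of the extracellular matrix in which chains wind around each other into a stiff helix, and glycine opens each repeating triplet of the helical part. Fibrillar collagens form the banded fibrils of connective tissue, type IV collagens form the sheet of the basement membrane that surrounds each muscle fibre, and type VI collagens form beaded filaments between the basement membrane and the fibrils. FACIT collagens sit on fibrils, multiplexins lie in the basement membrane zone, and the short chain type VIII forms open networks. Skeletal muscle fibroblasts make most of the interstitial fibrils in tissue, while myoblasts in culture also transcribe many of these genes.

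The repeat that defines the family can be read in the coding sequence, shown here for the most abundant fibrillar and the most abundant type IV gene because the 2 kinds of matrix are described separately throughout. Both are on mm10 (GRCm38), Col3a1 on the plus strand at chr1:45311538-45349706 and Col4a1 on the minus strand at chr8:11198423-11312826. Capitals mark codons for glycine (GG followed by any base), and each line is written 5′ to 3′.
Col3a1, 18 codons from codon 680: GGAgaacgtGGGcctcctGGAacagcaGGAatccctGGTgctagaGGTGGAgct
Col4a1, 22 codons from codon 215: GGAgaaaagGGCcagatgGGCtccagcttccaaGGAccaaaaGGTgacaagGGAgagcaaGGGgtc
In Col3a1 the stretch comes from an unbroken run of 344 triplets, and in the other fibrillar genes above that minimum the longest run was 337 to 339 triplets. Type IV genes are interrupted, as the Col4a1 line shows in its middle, where the spacing of the capitals changes. The longest run was 40 triplets in Col4a1, which has 22 runs of at least 5 triplets, and 66 in Col4a2, which has 24. Runs were also shorter outside the fibrillar class, at 87 triplets in Col6a1 and Col6a2, 45 in Col6a3, 60 in Col8a1, 52 in Col16a1, 32 in Col12a1 and 30 in Col18a1.

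The 250 bases before the annotated start are printed for Col3a1, the most abundant collagen, and for Col8a1, which was lower in each exosome library than in its medium alone. They are from the RefSeq promoter table of GRCm38.p6, in which 14 of the 17 genes were matched. Capitals mark 3 motifs, found on either strand. The form known as the TATA box was searched as TATAAA. That of the CCAAT box was searched by those 5 letters, and the GC box was searched as GGGCGG, which can share bases with the reverse form of the CCAAT box.
Col3a1, chr1:45311288-45311537, plus strand: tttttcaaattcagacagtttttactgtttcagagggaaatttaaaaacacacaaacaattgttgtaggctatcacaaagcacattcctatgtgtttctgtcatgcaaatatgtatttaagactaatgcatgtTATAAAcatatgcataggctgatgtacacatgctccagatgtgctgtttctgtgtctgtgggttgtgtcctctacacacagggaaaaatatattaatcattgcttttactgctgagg
Col8a1, chr16:57754738-57754987, minus strand: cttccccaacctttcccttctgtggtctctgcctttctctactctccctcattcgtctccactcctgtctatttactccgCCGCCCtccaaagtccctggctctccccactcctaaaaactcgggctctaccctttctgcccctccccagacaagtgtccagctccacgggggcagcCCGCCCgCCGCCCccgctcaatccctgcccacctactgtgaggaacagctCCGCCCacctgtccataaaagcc
TATAAA was present in the window of 2 of the 14 genes, Col3a1 and Col11a2, against 14.3% of all genes in the table. GGGCGG was present in 10 of 14, against 35.4%, and CCAAT in 7 of 14, against 37.5%. A match is a description of the letters in this window only.

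Reads were not counted in the deposited values. From the steps between low FPKM values, the depth was estimated at 33300000 to 39400000 reads a library, so that 1 FPKM on a transcript of 5000 bases corresponds to about 166.5 to 197 reads. Myoblast markers were present in every library (6 of 6 at a mean of 1 FPKM or more, with a summed level of 2956 to 7878 FPKM). That list includes Myog and Ckm, which the paper uses as markers of differentiation and maturation. Of the fibroblast markers, 5 of 7 also averaged 1 FPKM or more (summed level 51.3 to 131 FPKM), led by Ly6a at 15.9 to 79.3 FPKM and Pdgfrb at 16.2 to 40.7 FPKM, while Tcf21 was at most 0.029 FPKM. Markers of cartilage, bone and vessels were mostly at or near 0, with Acan and Matn1 of cartilage at most 0.015 FPKM, Ibsp of bone at most 0.014 FPKM, and all 4 endothelial markers at most 0.163 FPKM. Sox9 and Runx2, regulators of cartilage and bone that are not confined to them, were at 4.94 to 6.73 and 3.38 to 6.78 FPKM. Of the blood markers, Cd68 was at 1.19 to 2.005 FPKM, Ptprc at most 0.012 FPKM and Hbb-bs at 0.

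Of the fibrillar class, 7 of 11 genes averaged 1 FPKM or more, and the class made up 70.1% to 75% of the summed collagen FPKM. Col3a1, the type III chain of fine fibrils, stood far above the rest. It measured 1168 FPKM in 10% FBS, 1036 in 2% HS, 1025 in 2% HS + exosome, 1480 in 0.2% FBS, and 1811 and 1360 in the exosome libraries of 0.2% FBS. It alone held 54.6% to 59.7% of the collagen sum, and it ranked 53 among all genes by its mean. The libraries of 0.2% FBS were the highest and the libraries of 2% HS the lowest, without overlap. Within Col3a1, 1.22% of stretches of 75 bases, the read length, also occur in the annotated gene Gm47302, and no other collagen above the minimum shared such a stretch with another gene.

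Type I collagen, the main protein of tendon and scar, is built from the products of Col1a1 and Col1a2. Col1a1 was at 59.5 FPKM in 10% FBS, 49.0 in 2% HS, 53.8 in 2% HS + exosome, 88.4 in 0.2% FBS and 120 in each exosome library of 0.2% FBS. Col1a2 was at 19.8 FPKM in 10% FBS, 12.7 in 2% HS, 9.72 in 2% HS + exosome, 14.4 in 0.2% FBS, and 21.5 and 14.5 with exosomes there. The pair did not keep a fixed proportion. Their ratio of FPKM was 3.01 in 10% FBS, 3.85 in 2% HS, 5.54 in 2% HS + exosome, 6.14 in 0.2% FBS, and 5.56 and 8.29 with exosomes in 0.2% FBS, so that the highest ratio was 2.76 times the lowest.

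Type V chains are minor fibril components that set fibril width. Col5a2 measured 150 FPKM in 10% FBS, 159 in 2% HS, 122 in 2% HS + exosome, 157 in 0.2% FBS, and 171 and 148 with exosomes there, the narrowest range of the 17 genes (highest over lowest 1.41). Col5a1 measured 78.0, 80.8, 68.7, 96.9, 115 and 88.2 FPKM in the same order. Col5a3 followed neither. It was highest in 10% FBS at 20.7 FPKM, stood at 9.02 in 2% HS and 7.61 in 2% HS + exosome, and at 17.7 in 0.2% FBS, with 12.2 and 12.4 in its exosome libraries. The last fibrillar gene above the minimum was Col11a2, a chain best known from cartilage, at 1.83, 1.12, 1.08, 1.09, 3.43 and 1.39 FPKM in that order. Its highest value was in exosome replicate 1 alone.

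Basement membrane collagens were led by Col4a1 and Col4a2, which pair in the most widespread type IV network. Col4a1 measured 139 FPKM in 10% FBS, 102 in 2% HS, 88.9 in 2% HS + exosome, 159 in 0.2% FBS, and 185 and 123 with exosomes there. Col4a2 measured 98.0, 74.2, 65.1, 105, 120 and 87.0 FPKM in the same order. The pair moved closely together, with a ratio of 1.37 to 1.54 in all 6 libraries. They lie head to head on chromosome 8, and their annotated ends overlap by 22 bases (Col4a2 on the plus strand at chr8:11312805-11449287). The library kit keeps strand, but the strand setting of the FPKM step is not given in the sources used here. In all, 7 of the 17 genes overlap an annotated gene on the opposite strand, namely Col4a1, Col4a2, Col4a5, Col5a1, Col5a3, Col12a1 and Col18a1, the last with Slc19a1 among them, so that their values may hold reads of those genes.

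Col4a5, a type IV chain from the X chromosome, had another pattern, at 9.26 FPKM in 10% FBS, 15.5 in 2% HS, 9.25 in 2% HS + exosome, 8.27 in 0.2% FBS, and 14.5 and 9.23 with exosomes. It was highest in 2% HS, and its libraries of the 2 low-serum media overlapped. The ratio of Col4a1 to Col4a5 ran from 6.57 in 2% HS to 19.3 in 0.2% FBS. Col18a1, whose protein carries the endostatin fragment at its end, measured 74.1 FPKM in 10% FBS, 33.8 in 2% HS, 23.8 in 2% HS + exosome, 43.7 in 0.2% FBS, and 71.3 and 42.2 with exosomes. It was highest in growing cells, and replicate 1 alone came near that level. Of the other basement membrane genes, Col4a3, Col4a4 and Col15a1 stayed at or below 0.028 FPKM, and Col4a6 had a mean of 0.716 FPKM.

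Type VI collagen is assembled from the products of Col6a1, Col6a2 and a longer chain such as that of Col6a3, and loss of any of these causes muscle disease in people. Col6a1 was the second most abundant collagen, at 150 FPKM in 10% FBS, 109 in 2% HS, 125 in 2% HS + exosome, 195 in 0.2% FBS, and 229 and 235 with exosomes there. Col6a2 was at 57.1, 42.2, 50.5, 85.6, 88.1 and 101 FPKM, and Col6a3 at 51.7, 31.7, 31.5, 48.8, 66.3 and 58.8 FPKM, in the same order. For Col6a1 and Col6a2 the exosome libraries were above the library without exosomes in both media. The ratio of Col6a1 to Col6a2 stayed between 2.28 and 2.63, and that of Col6a1 to Col6a3 between 2.90 and 4.0. Col6a1 and Col6a2 are neighbours on the same strand of chromosome 10, with 85161 bases between them. The alternative long chains Col6a4, Col6a5 and Col6a6 were at most 0.028 FPKM, and Col6a5 was listed at 0 in all 6 libraries.

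Among the FACIT genes, 2 of 9 passed the minimum. Col12a1, which coats type I fibrils, measured 36.8 FPKM in 10% FBS, 29.0 in 2% HS, 21.4 in 2% HS + exosome, 41.9 in 0.2% FBS, and 48.3 and 53.4 with exosomes. Col16a1 measured 16.1, 9.37, 8.42, 9.41, 17.5 and 17.6 FPKM in the same order. For Col16a1, the 2 exosome libraries of 0.2% FBS and the growing cells stood together above the other 3 libraries. Of the 3 short chain genes, only Col8a1 passed the minimum. It measured 6.05 FPKM in 10% FBS, 4.59 in 2% HS, 2.83 in 2% HS + exosome, 10.3 in 0.2% FBS, and 5.99 and 4.34 with exosomes, so that each exosome library was below its own medium.

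**Figure D1:**
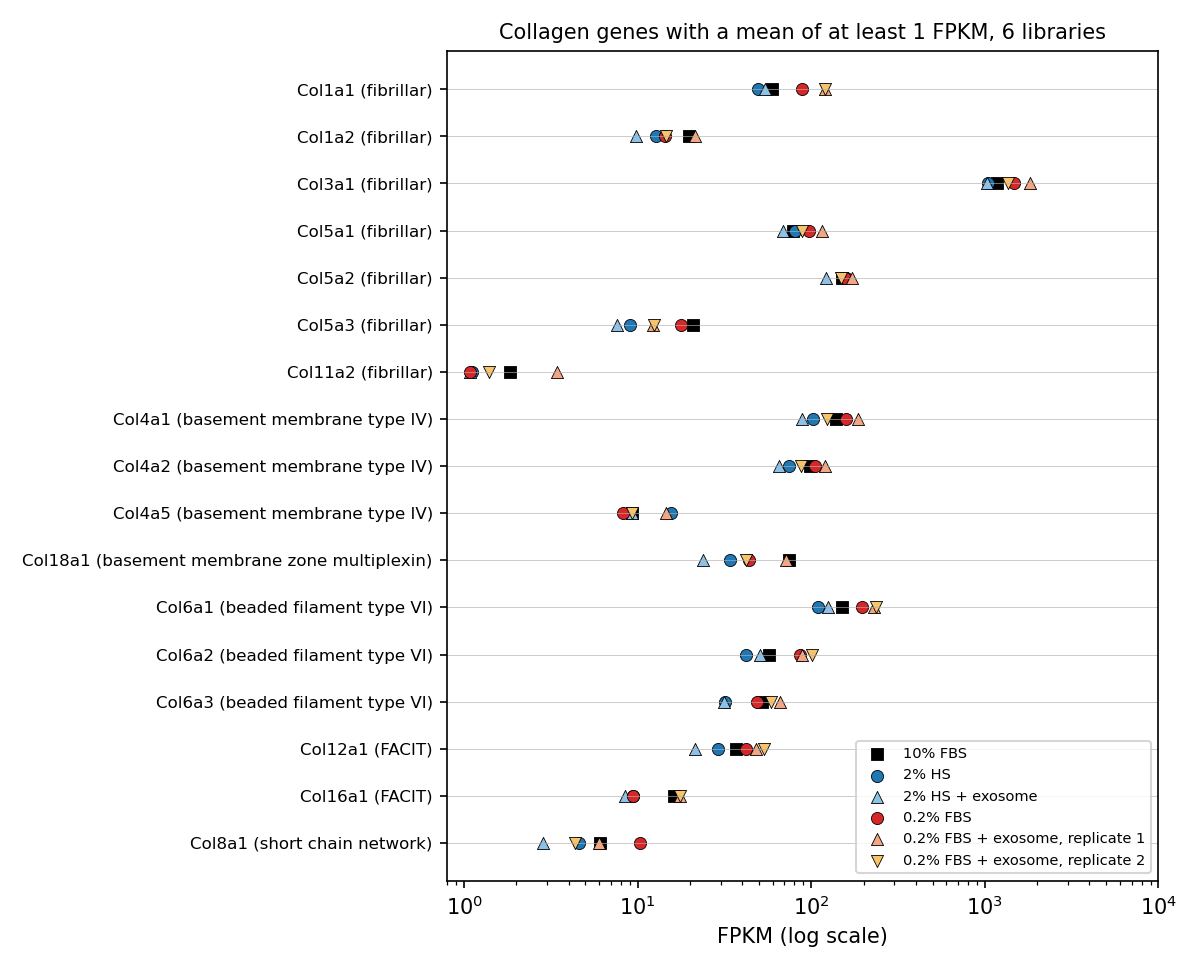
FPKM on a log axis (horizontal) for the 17 collagen genes above the minimum of 1 FPKM (vertical, with their class), 1 point for each of the 6 libraries and no error bars, since 4 of the 5 groups hold 1 library. Col3a1 lies at 1025 to 1811 FPKM, above every other gene, and for most genes the blue 2% HS points lie left of the red and orange 0.2% FBS points.

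**Figure D2:**
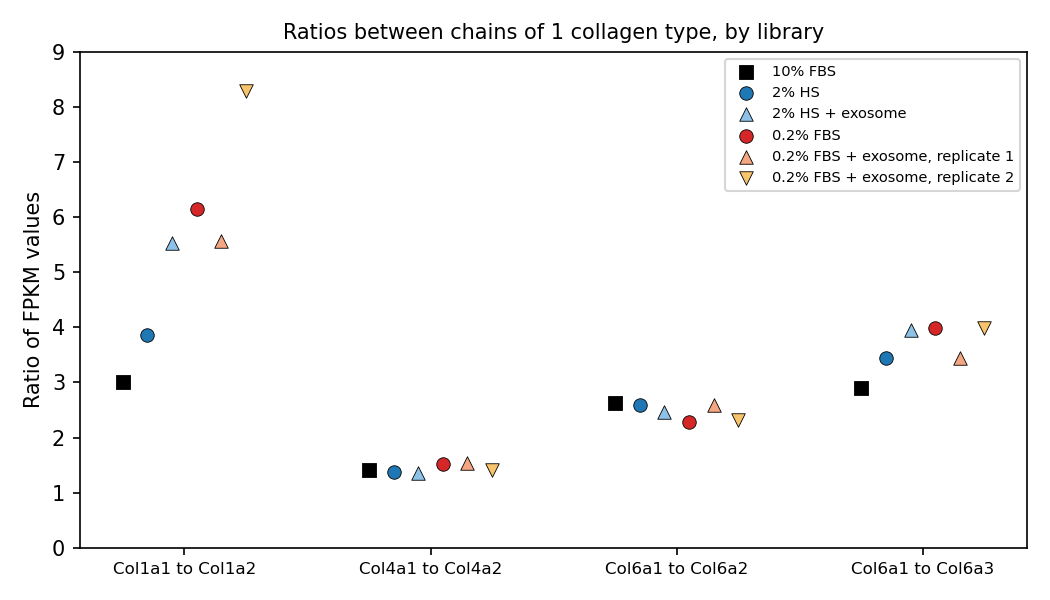
Ratio of FPKM values (vertical) between chains that assemble together, for 4 pairs (horizontal), 1 point a library. The Col4a1 to Col4a2 ratio stays within 1.37 to 1.54, while the Col1a1 to Col1a2 ratio runs from 3.01 to 8.29.

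The 27 collagens below a mean of 1 FPKM summed to 3.31 to 5.26 FPKM a library. Of these, 3 reached 1 FPKM in a single library. Col11a1, a minor fibril chain, was at 1.05 FPKM in 0.2% FBS and 0.485 to 0.953 in the other libraries. Col24a1 was at 1.27 FPKM in exosome replicate 2 of 0.2% FBS and 0.230 to 0.947 elsewhere, and Col4a6 at 1.70 FPKM in replicate 1 and 0.407 to 0.628 elsewhere. Col7a1, the anchoring fibril gene of skin, was at 0.423 to 0.753 FPKM. The other 23 were Col2a1, Col27a1, Col4a3, Col4a4, Col15a1, Col6a4, Col6a5, Col6a6, Col9a1, Col9a2, Col9a3, Col14a1, Col19a1, Col20a1, Col22a1, Col8a2, Col10a1, Col13a1, Col17a1, Col23a1, Col25a1, Col26a1 and Col28a1. Col22a1, found at the junction of muscle and tendon, was the highest of these 23 at 0.797 FPKM in 2% HS + exosome. Col2a1, the fibrillar collagen of cartilage, was at most 0.025 FPKM, and the transmembrane genes Col13a1, Col17a1, Col23a1 and Col25a1 were at most 0.186 FPKM.

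The first comparison asked how collagen transcripts differed when exosomes were added to differentiating cells in 0.2% FBS. Col16a1 was called higher and Col8a1 lower, and the other 15 genes did not pass the test. The control was 1 library, so that the spread came only from the 2 exosome libraries, which may be technical replicates, and was assumed for the control too. Changes are differences of log2(FPKM + 1), which understate the change of low genes, and were called by limma with Benjamini-Hochberg adjusted p under 0.05 over 10726 genes. Col16a1 was higher by 0.83 in each of the 2 exosome libraries (SE 0.155, adjusted p = 0.0181). Col8a1 was lower by 0.69 and 1.08 (mean -0.88, SE 0.201, adjusted p = 0.0285). Replicate 1 shares its title number with the 0.2% FBS library and replicate 2 does not, and both genes differed in the same direction in each. These were 2 of 17 collagens, where 12.5% of all genes were called. The test has 1 residual degree of freedom, and with no minimum of expression it called 0 genes by limma, with 3120 of 16443 at an unadjusted p under 0.05.

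By the threshold used in the study's methods, a log2 change above 1 or below -1, none of the 17 collagens passed on the mean of both libraries, where 4.05% of all genes with a mean of 1 FPKM or more did. Over entries of any level, none of 44 passed, where 2.1% did. Both counts of 0 depended on the treatment of low values. When no pseudocount was added and low values were instead set to 1 FPKM, Col11a2 (1.01) and Col8a1 (-1.01) passed, and with a pseudocount of 0.1 Col14a1 (1.01) and Col4a6 (1.17) did, both of which lie below the minimum. Col11a2 passed in replicate 1 alone (1.09, against 0.20 in replicate 2), and Col8a1 in replicate 2 alone. Without a threshold, 9 of 17 were higher in each exosome library, where 55.2% of all genes were, and 2 were lower in each, Col5a3 and Col8a1, where 27.5% were. The 9 were Col1a1, Col1a2, Col11a2, Col4a5, Col6a1, Col6a2, Col6a3, Col12a1 and Col16a1, of which Col1a2 and Col6a2 left the count when libraries were scaled to equal 75th percentiles. Such scaling moved the median change of all genes in replicate 2 from 0.18 to 0.05.

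Col1a1 was higher by 0.43 and 0.44 (SE 0.182, limma adjusted p = 0.145), and Col5a3 was lower by 0.50 and 0.48 (SE 0.155, limma adjusted p = 0.0735). In both genes the replicates lay close together, yet the adjusted p missed the threshold. The replicates lay on opposite sides of the control for Col3a1 (0.29 and -0.12), Col5a1 (0.24 and -0.13), Col5a2 (0.12 and -0.09), Col4a1 (0.21 and -0.37), Col4a2 (0.19 and -0.27) and Col18a1 (0.70 and -0.05). In each of these 6 genes it was replicate 1 that was higher. The median over the 17 genes was 0.24 in replicate 1 and 0.01 in replicate 2, beside 0.09 and 0.18 over all genes, so the collagens exceeded the median of all genes in replicate 1 and fell below it in replicate 2.

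In 2% HS, 1 library with exosomes was set against 1 without. A limma contrast for this pair was added after the values were seen and rested on the spread between the 2 exosome libraries of 0.2% FBS. It called 0 of 17 collagens, where 0.0839% of all genes were called. By direction alone, 14 of 17 collagens were lower with exosomes, where 58.7% of all genes were, and Col3a1 and Col6a3 were higher under the 75th percentile scaling. None passed a log2 change of 1 in either direction, where 0.653% of all genes did. The largest differences were in Col4a5 (-0.68), Col8a1 (-0.54), Col18a1 (-0.49) and Col12a1 (-0.43). Higher values were found for Col6a2 (0.25), Col6a1 (0.18) and Col1a1 (0.13). The median over the 17 genes was -0.19, beside -0.04 over all genes.

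The difference of the exosome effects between the media was tested by limma with 1 mean for each condition. It called 0 of 17 collagens, where 1.17% of all genes were called. Higher in each exosome library of 0.2% FBS and lower with exosomes in 2% HS were 6 of 17 collagens, where 33.7% of all genes were. The largest difference was that of Col4a5 (1.13, SE 0.364, limma adjusted p = 0.155), and the lowest adjusted p was that of Col16a1 (0.97, SE 0.237, limma adjusted p = 0.0864). An effect common to both media was tested by limma with 1 mean for each medium and an exosome term. It called 0 of 17 collagens and 0.0% of all genes, and 6.62% of all genes had an unadjusted p under 0.05. Of the collagens with such a p, both were lower, Col8a1 (-0.74, SE 0.186, limma adjusted p = 0.706, unadjusted 0.00575) and Col5a3 (-0.37, SE 0.149, limma adjusted p = 0.706, unadjusted 0.0418). Both were lower in all 3 exosome libraries than in the library of the same medium without exosomes.

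**Figure D3:**
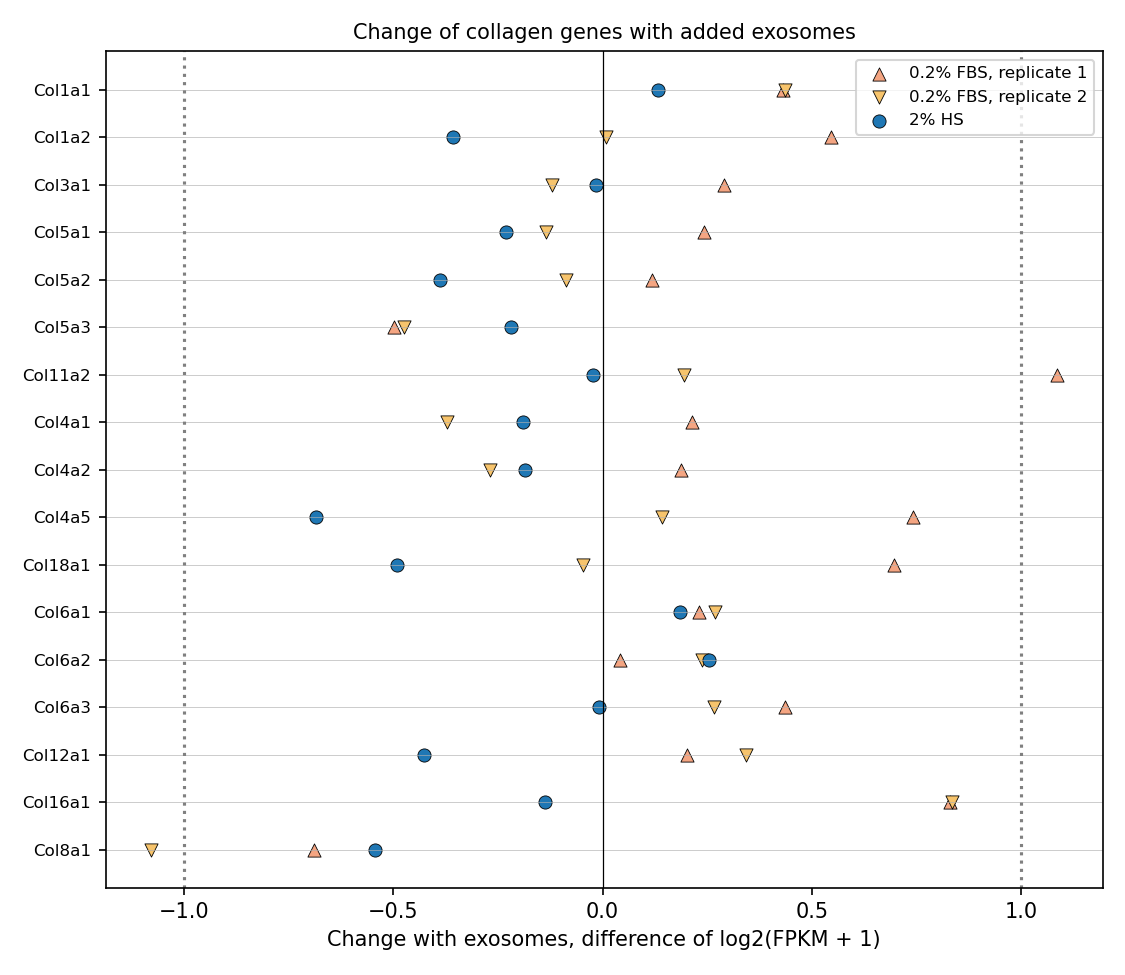
Difference of log2(FPKM + 1) between each exosome library and the library of the same medium without exosomes (horizontal) for the 17 genes (vertical); triangles are the 2 libraries of 0.2% FBS, circles the library of 2% HS, dotted lines mark changes of 1 in either direction. Col16a1 has both triangles at 0.83 and its circle at -0.14, and Col8a1 has all 3 points below 0.

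The second comparison set the differentiating cells against growing cells in 10% FBS, with 1 library each. The growing cells already held differentiation transcripts. Myog was at 512 FPKM there, beside 564 in 2% HS and 663 in 0.2% FBS. Ckm was at 356 FPKM, beside 847 and 734. In 2% HS, 14 of 17 collagens were lower than in 10% FBS, where 59.9% of all genes were. Col5a3 and Col18a1 were lower past the threshold, each at -1.11, where 0.522% of all genes did. A limma contrast, added in the same way, called Col5a3 lower (SE 0.180, adjusted p = 0.047) and no other collagen, where 0.513% of all genes were called, and with no minimum of expression it called 0 collagens. Col4a5 was higher in 2% HS (0.68), and Col5a1 and Col5a2 were near 0 (0.05 and 0.09). In 0.2% FBS, 7 of 17 were lower, where 61.5% of all genes were, and none passed the threshold in either direction, where 2.48% of all genes did. The added limma contrast called 0 of 17, where 0.0186% of all genes were called. The highest differences there were Col8a1 (0.68), Col6a2 (0.58) and Col1a1 (0.56), and the lowest were Col18a1 (-0.75) and Col16a1 (-0.72). The median over the 17 genes was -0.42 in 2% HS and 0.10 in 0.2% FBS, beside -0.08 and -0.09 over all genes. These comparisons share the 10% FBS library.

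A further comparison, between the 2 low-serum media, was set out after the values were seen. Most collagen genes had higher values in 0.2% FBS than in 2% HS, although no single gene passed the adjusted test. For 13 of 17 genes all 3 libraries of 0.2% FBS lay above both libraries of 2% HS, where 21.4% of all genes did, and for 0 of 17 they lay below, where 10.5% of all genes did. The 13 were Col1a1, Col1a2, Col3a1, Col5a1, Col5a3, Col4a1, Col4a2, Col18a1, Col6a1, Col6a2, Col6a3, Col12a1 and Col16a1, the last by a narrow margin between the libraries without exosomes (9.41 against 9.37 FPKM). The library of 10% FBS was also above both 2% HS libraries in 12 of these, the exception being Col5a1, so that 12 of 17 had all 4 FBS libraries above, where 18.7% of all genes did. The 4 genes with overlapping libraries were Col5a2, Col11a2, Col4a5 and Col8a1.

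Without exosomes, 14 of 17 were higher in 0.2% FBS than in 2% HS, where 46.3% of all genes were, with a median difference of 0.51 beside -0.01 over all genes. Col6a2 (1.00) and Col8a1 (1.01) passed a log2 difference of 1, where 0.233% of all genes did. Col5a3 (0.90), Col1a1 (0.84) and Col6a1 (0.83) came next, and Col4a5 was lower (-0.83). The summed collagen level was 1802 and 1718 FPKM in the 2% HS libraries, 2140 in 10% FBS, and 2567, 3104 and 2481 in the libraries of 0.2% FBS.

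In the limma fit with an exosome term, the medium contrast had 11 of 17 collagens at an unadjusted p under 0.05, all of them higher in 0.2% FBS, where 9.53% of all genes were at that p in either direction. After adjustment it called 0 of 17 and 0.0% of all genes, so that no single gene passed. Col1a1 had the lowest value (1.01, SE 0.155, limma adjusted p = 0.442, unadjusted 0.000371), followed by Col6a2 (0.94, SE 0.153, limma adjusted p = 0.468, unadjusted 0.000525). Col3a1, Col1a2 and Col5a1 were among the 13 genes without overlap but missed the unadjusted threshold, with limma p of 0.0564, 0.0542 and 0.0546. The library numbers of the titles follow the media, and the 2 cannot be told apart. The summed myoblast markers were 6372 and 7074 FPKM in 2% HS and 2956 to 7878 FPKM in 0.2% FBS, and the summed fibroblast markers were 72.4 and 73.1 FPKM and 51.3 to 131 FPKM, so that both sums overlapped between the media. Of the 7 fibroblast markers, however, 3 had all libraries of 0.2% FBS above both of 2% HS and 0 below, where 21.4% and 10.5% of all genes did. Those shares are over genes with a mean of 1 FPKM or more, a minimum that Tcf21 and Dpt missed. Pdgfrb was at 22.9 and 16.2 FPKM in 2% HS without and with exosomes, and at 24.8, 40.7 and 39.4 FPKM in the libraries of 0.2% FBS. The others were Pdgfra and Pi16. Ly6a, the most abundant of the list, overlapped, with 41.2 and 46.04 FPKM in 2% HS beside 15.9, 27.4 and 79.3 FPKM in 0.2% FBS. The part of these markers in the result was not tested. In bulk RNA, fewer cells of a kind and less RNA per cell cannot be told apart.

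**Figure D4:**
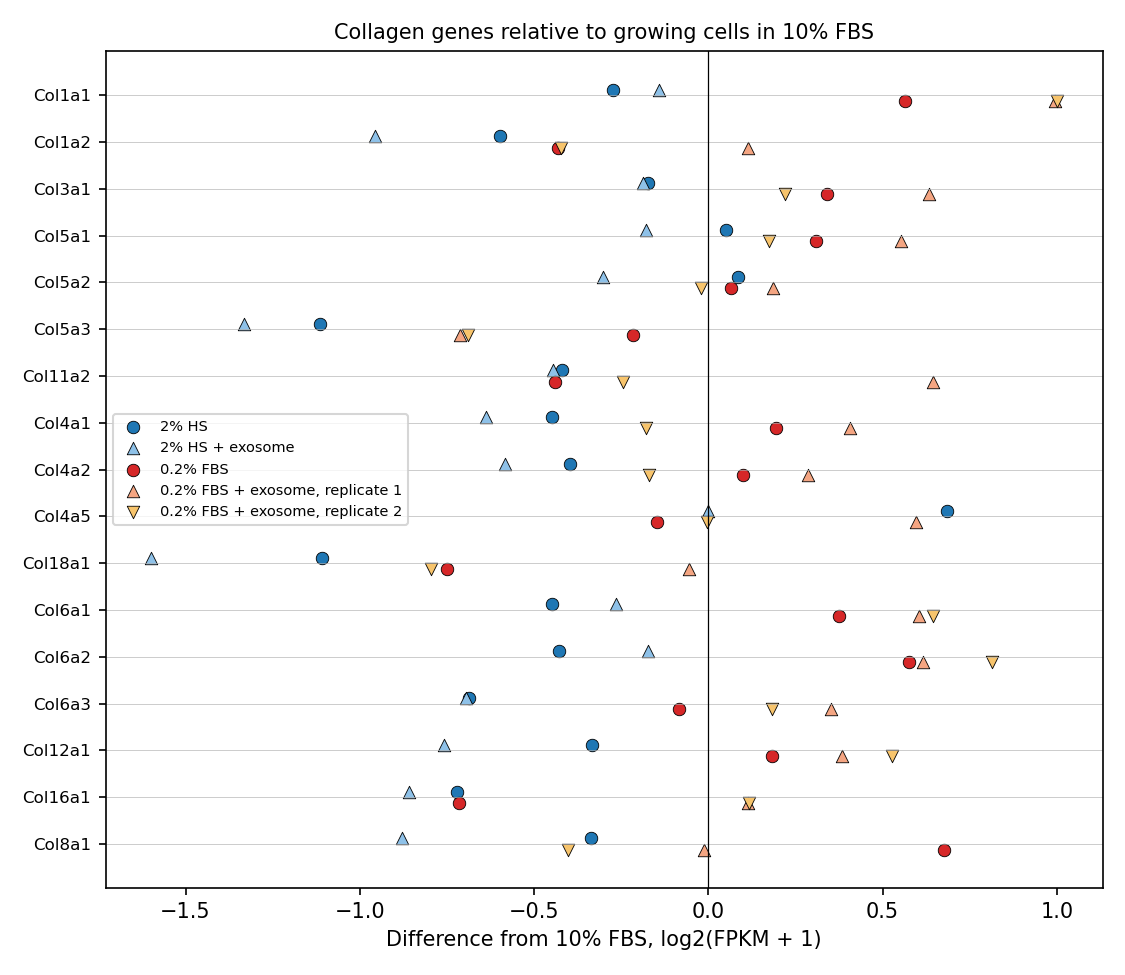
Difference of log2(FPKM + 1) from the 10% FBS library (horizontal) for the 17 genes (vertical), 1 point for each of the other 5 libraries. For 13 genes the 3 red and orange points of 0.2% FBS lie right of both blue points of 2% HS, while Col4a5 has its 2% HS point at 0.68 and its 0.2% FBS point at -0.15.

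Genes that modify, secrete, cross-link or bind collagen were counted from lists. Of the enzymes and chaperones that hydroxylate and fold chains in the endoplasmic reticulum, 17 of 18 averaged 1 FPKM or more, and 14 of these were higher in each exosome library of 0.2% FBS and 0 lower, where 55.2% and 27.5% of all genes were, with a median change of 0.46 beside 0.14 over all genes. By limma 4 of the 17 were called higher and 0 lower in 0.2% FBS, where 12.5% of all genes were called in either direction, from the fit with 1 control library. They were Plod3 (0.75, adjusted p = 0.0263), a lysyl hydroxylase, Crtap (0.64, adjusted p = 0.0471) and the prolyl hydroxylase family members listed as Leprel1 (0.71, adjusted p = 0.0315) and Leprel2 (0.77, adjusted p = 0.023). In 2% HS, with 1 library against 1, 14 of 17 had lower values with exosomes, where 58.7% of all genes did, with a median of -0.13. None of the 17 was called there or in the difference between the media (lowest limma adjusted p of the difference 0.0989). The summed myoblast markers, which include the differentiation genes Myog and Ckm, stood at 3627 FPKM in the growing cells of 10% FBS. In 0.2% FBS the sum was 7878 FPKM in the control, and 3734 and 2956 FPKM in the exosome libraries. Most of the control sum was Acta1, the muscle actin (5322 FPKM). Myf5, a regulator of myoblasts, measured 5.39 FPKM in the control, and 10.1 and 12.9 with exosomes, and was the only gene of that list to be higher. Myod1 measured 110 FPKM in the control, and 87.6 and 101 with exosomes. Des, Myog, Ckm and Acta1 were also lower in both exosome libraries. The summed fibroblast markers measured 51.3 FPKM in the control, and 80.6 and 131 with exosomes. Within that list Ly6a measured 15.9 FPKM in the control, and 27.4 and 79.3 with exosomes, and Pdgfrb 24.8, then 40.7 and 39.4. Dpt was lower in both exosome libraries (0.961, then 0.434 and 0.185 FPKM). Pdgfra, Pi16 and Lum were higher in 1 exosome library and lower in the other, and Tcf21 was at 0. The part of these markers in the changes with exosomes, of collagens and of this list, was not tested. Between the media without exosomes the median of this list was -0.10, and 2 of 17 had all 0.2% FBS libraries above those of 2% HS, where 21.4% of all genes did, beside 13 of 17 for the collagen genes. Of the genes for propeptide removal and crosslinking, 6 of 11 were higher in each exosome library of 0.2% FBS and 2 lower. For secretion and transcription the counts were 3 and 1 of 7, which became 1 and 3 under the 75th percentile scaling. They were for basement membrane partners 7 and 2 of 12, for fibril-associated proteoglycans 5 and 0 of 7, and for collagen receptors 4 and 1 of 7, against the same 55.2% and 27.5% of all genes. The limma calls in 0.2% FBS, higher and lower, were 2 and 1 of 11 for propeptide removal and crosslinking, 3 and 1 of 12 for basement membrane partners, 1 and 0 of 7 for receptors, and 0 of 7 in each of the other lists.

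Mrc2, a receptor that takes up collagen for degradation, passed a log2 change of 1 in each exosome library of 0.2% FBS. Its values were 36.8 FPKM in 0.2% FBS without exosomes, then 85.5 and 96.3 FPKM with them (1.28, SE 0.180, limma adjusted p = 0.00848, from the same fit with 1 control library, which called no gene with no minimum of expression). It was at 56.3 FPKM in 10% FBS, 47.3 FPKM in 2% HS and 44.5 FPKM in 2% HS + exosome, so that the single 0.2% FBS control held its lowest value. Lum, a proteoglycan that binds fibrils, was the list member past the threshold in both low-serum media against 10% FBS, at 0.650 FPKM in 10% FBS, 4.34 in 2% HS and 2.53 in 0.2% FBS. By the added limma contrasts it was called in neither (adjusted p = 0.123 in 2% HS and 0.225 in 0.2% FBS).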

How the data were processed

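RNA-seq of 6 C2C12 libraries was used. As the paper's methods state, libraries were made with a stranded mRNA kit and sequenced as single-end reads of 75 bases. The authors trimmed reads with cutadapt 1.9.1, mapped them to mm10 with TopHat2 2.1.0 and deposited FPKM values computed with Cufflinks, 1 column a library, which already divide by length and depth. Groups came from the labels. No counts were used, and depth was estimated from low values. Values were compared as log2(FPKM + 1) with a pseudocount of 1 FPKM among the 10726 genes that averaged 1 FPKM or more. The 5 names that occur more than once (10 rows) were left out. Fits used limma 3.58.1 in R 4.3.3, with 2 residual degrees of freedom for the common exosome term and 1 for the means per condition. In the latter, groups of 1 library are assumed to vary like the 2 exosome libraries of 0.2% FBS. The alternatives were a pseudocount of 0.1, values below 1 FPKM raised to 1, 75th percentile scaling, no filter, scaling to an equal sum, and each exosome library of 0.2% FBS left out. All collagens past that minimum were named, and list genes only when past a log2 change of 1 in each exosome library of 0.2% FBS or in both low-serum media, apart from 4 chain modification genes, which were chosen after their values were seen. A list gene that met this rule is not reported here. The members and lists were chosen with earlier results of these data known. Sequences and coordinates came from GRCm38 annotation and RefSeq.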

Additional observations from a re-analysis of the deposited data

Results flagged for a closer look

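For 6 of 17 collagens the 2 exosome libraries of 0.2% FBS were both above their control while the exosome library of 2% HS was below its own, as for 33.7% of all genes. The gap between the 2 effects, 0.2% FBS minus 2% HS on the scale of log2(FPKM + 1), was 1.13 for Col4a5, 0.97 for Col16a1, 0.70 for Col12a1, 0.66 for Col11a2, 0.63 for Col1a2 and 0.36 for Col6a3. By limma the adjusted p of these differences was 0.155, 0.0864, 0.197, 0.498, 0.348 and 0.496 in that order, and none passed 0.05. For Col6a3 the effect in 2% HS was -0.01, and under the 75th percentile scaling it was 0.03. For Col1a2 the effect in replicate 2 was 0.01, and -0.12 under that scaling.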

How the results depend on the processing

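Of 92 alternative values for counts, medians and sums, 83 stayed within 1.5 times the count, or within the spread between the 2 exosome libraries of 0.2% FBS. The exceptions were small counts and 1 median. A count of 0 that stayed at 0 was taken as unchanged. This includes the limma counts of the common exosome effect and of the medium contrast, which called 0 of all genes under every setting, so the 83 overstate stability. For exosomes in 0.2% FBS, the collagens past a log2 change of 1 numbered 0 in each direction as reported, 2 higher with a pseudocount of 0.1, and 1 higher and 1 lower with values below 1 FPKM raised to 1. With either exosome library of 0.2% FBS left out, they numbered 0 to 1 in each direction, and the median of the 17 genes was 0.0071 to 0.24. For exosomes in 2% HS, 1 collagen was higher with a pseudocount of 0.1. The limma tests within 0.2% FBS and of 2% HS against 10% FBS each called 0 collagens with no filter, under which more genes with low values entered the fit; Col16a1 and Col8a1 lost their call there, and Col5a3 gained one under the 75th percentile scaling (-0.59). Over all genes, the calls within 0.2% FBS numbered 1343 as reported and 0 with no filter, and those of the difference between media 125 as reported, 350 under that scaling and 0 with no filter, with 0 collagens among the latter 3. For the contrasts added after the data were seen, the calls over all genes numbered 9 for exosomes in 2% HS, 55 for 2% HS against 10% FBS and 2 for 0.2% FBS against 10% FBS, became 22, 191 and 297 under that scaling and 0 in each with no filter, and the last 2 were 68 and 45 with a pseudocount of 0.1. The scaling also reversed the uncalled means of Col3a1 (-0.023), Col5a1 (-0.053) and Col5a2 (-0.091). Leaving out 1 exosome library gave -0.12 to 0.29 for Col3a1, -0.13 to 0.24 for Col5a1, -0.087 to 0.12 for Col5a2, -0.37 to 0.21 for Col4a1, -0.27 to 0.19 for Col4a2 and -0.047 to 0.70 for Col18a1. The count of 13 genes with 0.2% FBS above 2% HS, added after the data were seen, was 12 to 14 under its alternatives. The cause of these shifts was not tested. With the title number as a replicate block, added after the data were seen, the common exosome effect rested on 2 pairs and called 0 collagens by limma, as reported, with 298 genes at an unadjusted p under 0.05 beside 710 without the block. Whether these numbers pair the libraries is not stated in the labels.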
